A study of Chlamydomonas reinhardtii with 8 samples.

Results

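The nitrate and ammonium uptake and reduction genes of *Chlamydomonas reinhardtii* examined here are 5 of the 14557 transcript models on the array design, namely *NIT1* (JGI identifier 184661), *NII1* (192085), *NIT2* (205647), *AMT1* (158745) and *AMT4* (156131). Other models are called by the older locus names of the NCBI annotation, CHLREDRAFT_ and the same kind of number. The 5 models were chosen by identifier from the nitrate and ammonium genes that the study lists for nitrogen starvation, an experiment on other arrays that are not analysed here. A second nitrate reductase model of that list is counted below with the further nitrogen genes. Each model has 3 probes, so that 15 probes were followed on all 8 arrays in both channels. On 6 arrays, RNA of the wild type cc3491 at T0 (0 h) was labeled with Cy3 and RNA of the same strain after sulfur starvation with Cy5. On the remaining 2 arrays, called the dye test here, both channels are labelled as RNA of the wild type cc125 after 24 h without sulfur. The cells were grown in TAP medium, with sulfur or without it, and TAP supplies nitrogen as ammonium. The strain cc125 is known to carry mutations in *NIT1* and *NIT2* and not to grow on nitrate, which limits it as a model for these genes.

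Green algae take up nitrate through transporters of the plasma membrane, nitrate reductase turns it into nitrite, and nitrite reductase in the chloroplast turns nitrite into ammonium. *NIT1* encodes nitrate reductase, *NII1* nitrite reductase, and *NIT2* a transcription factor that the induction of the nitrate assimilation genes requires. Proteins of the AMT family, which *AMT1* and *AMT4* encode, carry ammonium into the cell. In *C. reinhardtii* the nitrate assimilation genes are known to be repressed by ammonium, and several of them lie next to each other on the chromosome.

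The arrays differed in brightness. The first 2 replicates of cc3491 had 4.99% and 5.64% of 43705 probes well above background (the mark that the Feature Extraction software sets per spot and channel), and 0 of 60 readings of the 15 probes carried that mark there. Replicates 3 to 6 had between 38.5% and 56% of the probes above background and were used for the comparison. Replicates 3 and 4 lie on slide 1 and replicates 5 and 6 on slide 2, and the labels give 72 h and 96 h of starvation for the former and 24 h and 48 h for the latter, whereas the titles give 24 h for each. Slide and labelled time therefore cannot be told apart. The study counts technical replicas among the 6 arrays without saying which they are, so the p-values may measure technical spread. The dye-test arrays had 92.7% and 98.5% of the probes above background.

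Known sulfur starvation genes were used to check the labels, with probe 1 of each gene alone. The sulfate transporter gene *SLT1* was higher in the starved RNA on each of replicates 3 to 6, with log2 ratios of 1.91, 1.70, 2.01 and 2.18. *ECP76*, which encodes an extracellular protein made without sulfur, was well above background on slide 1 alone, at 4.45 and 3.66. The arylsulfatase genes *ARS1* and *ARS2* and the extracellular protein gene *ECP88* were above background on 0, 1 and 0 of the 4 arrays. Their mean log2 ratios there were 0.58, -0.30 and 0.33. On slide 1 *ARS2* was lower in the starved RNA, at -0.91 and -0.38, while *ARS1* was at 0.33 and 1.60 and *ECP88* at -0.04 and 0.94. On slide 2 *ECP76* was at 0.13 and 0.46. The starved label of cc3491 therefore rested on *SLT1* and *ECP76* for slide 1 and on *SLT1* alone for slide 2. The second dye-test array went against its label. There *ARS1* had a log2 ratio of Cy5 over Cy3 of 3.92, *ARS2* 4.21, *ECP88* 4.78, *ECP76* 4.27 and *SLT1* 3.96, whereas the first dye-test array gave values between -0.39 and 0.21 for the same 5 probes. Values of the second array are therefore given as those of an array labelled as the same RNA in both channels, and apart from the first.

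The 5 genes differed in how well cc3491 could be measured. On replicates 3 to 6, *NIT2* and *NII1* each had 8 of 12 readings well above background in Cy3 and 8 of 12 in Cy5, which came from probes 1 and 2 in both genes. *AMT1* had 1 reading above background in the T0 channel and 4 in the starved channel. *NIT1* had 1 and 0, and *AMT4* had 1 and 1. In all, 19 of 60 readings were above background at T0 and 21 of 60 in the starved channel. No spot of the 15 probes was saturated or marked as uneven. Probe 3 stayed near background for *NII1*, *NIT2* and *AMT1*, so the 3 probes of a gene were kept apart and no probe was set against another in brightness.

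**Figure D1:**
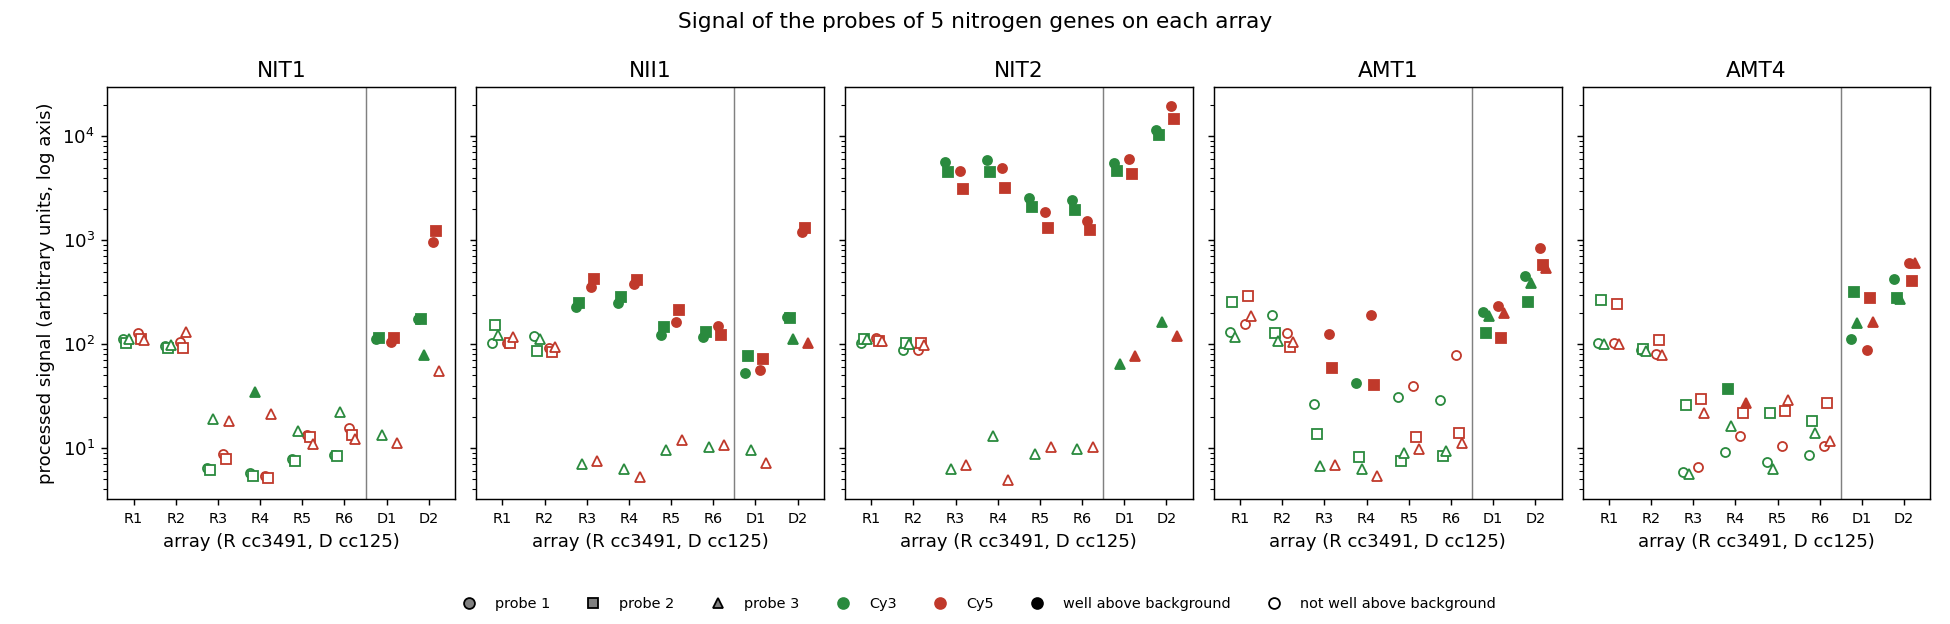
Processed signal (arbitrary units, log axis) of the 15 probes on each array, with green for Cy3 and red for Cy5, the symbol for the probe number, and filled symbols for readings well above background. R1 to R6 are the cc3491 replicates and D1 and D2 the cc125 dye-test arrays, and no error is drawn because each symbol is 1 probe on 1 array. *NIT2* probes 1 and 2 are the filled points at the top of their panel, *NIT1* probes 1 and 2 are open on all cc3491 arrays and filled on both cc125 arrays, and every point of R1 and R2 is open.

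The comparison asked whether the transcripts of these genes changed between T0 and the sulfur-starved state in cc3491. The test took in probes with a reading above background, in either channel, on no fewer than 3 of replicates 3 to 6, which 4 of the 15 probes met, probes 1 and 2 of *NII1* and of *NIT2*. None of the 4 was called by the study's rule (Holm-adjusted p under 0.05 in limma and a change of at least 2-fold), by which 212 of 18236 probes (1.16%) were called, 145 higher and 67 lower. Without a minimum fold and with Benjamini-Hochberg adjustment in limma, both *NII1* probes were higher in the starved RNA, as were 21.9% of all tested probes, and both *NIT2* probes were lower, as were 23.7%. The 4 changes were below 2-fold, and with the minimum of 2-fold the Benjamini-Hochberg adjustment left 4.7% of the probes higher, 4.28% lower and 0 of the members. Shifts of this size and adjusted p were thus common among all probes, whose median log2 ratio was -0.02.

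*NII1*, the nitrite reductase gene, was moderately higher in the starved RNA. With probe 1, the processed signals at T0 were 228, 248, 122 and 118 on replicates 3 to 6 and the signals of the starved RNA were 357, 381, 165 and 151. By processed signal the starved channel was the brighter one on 4 of 4 arrays, although the ranges of both channels overlapped because both signals were higher on slide 1. The uncorrected net intensities, not scaled between the dyes, were 74, 77.5, 86 and 77 at T0. In the starved channel they were 165.5, 169, 21 and 14.5, so the uncorrected Cy5 intensity was weak and the lower of the pair on slide 2. The log2 ratios after loess were 0.70, 0.68, 0.52 and 0.46, with a mean of 0.59 ± 0.12 (SD, n = 4). This is a change of 1.50-fold, with a 95% interval of the log2 ratio from 0.41 to 0.77 and an adjusted p of 0.00355 (limma, Benjamini-Hochberg). Every array moved in the same direction. The Benjamini-Hochberg adjusted p in limma stayed under 0.05 without any single one of the replicates.

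Probe 2 of *NII1* gave a similar mean with a larger spread. Its signals were 249, 285, 146 and 131 at T0 and 424, 414, 211 and 123 in the starved RNA. Replicate 6 was the one array on which the processed starved signal was not the higher of the pair before loess. The log2 ratios were 0.82, 0.60, 0.60 and 0.02, with a mean of 0.51 ± 0.34 (SD, n = 4), a 95% interval from 0.12 to 0.90, a change of 1.42-fold and an adjusted p of 0.0457 (limma, Benjamini-Hochberg). Without replicate 3, 4 or 5 the adjusted p in limma was 0.138, 0.137 and 0.126, and without replicate 6 the mean was 0.67 and the adjusted p 0.0114. With slide as a random block the adjusted p of probe 2 was 0.110 in limma, and it passed in 7 of 20 alternatives, against 16 of 20 for probe 1, each count including 1 alternative in which the sign was reversed. From uncorrected intensities with normexp background correction, which damps the ratios of dim probes, the means of probes 1 and 2 were 0.23 and 0.26, and neither passed (adjusted p of 0.112 and 0.0852 in limma).

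Probe 3 of *NII1* did not follow the others. Its signals lay between 5.31 and 11.9 in both channels and were not well above background on any of the 4 arrays. In 7 of its 8 readings the net intensity was at or below the 95th percentile of the 153 negative control spots of the same channel. It gave no measure of the gene in cc3491.

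*NIT2*, the regulator of the nitrate genes, had clear signals on all 4 arrays and was lower in the starved RNA. With probe 1 the signals at T0 were 5641, 5870, 2567 and 2418, and those of the starved RNA 4628, 4908, 1855 and 1537. By processed signal the starved channel was the dimmer one on each array. The uncorrected net intensities were 1567, 1419, 1283.5 and 1059.5 at T0 and 2150, 2080, 219 and 165.5 in the starved channel. Before the dye scaling Cy5 was thus the higher of the pair on slide 1. The log2 ratios were -0.26, -0.22, -0.45 and -0.63, with a mean of -0.39 ± 0.19 (SD, n = 4), a 95% interval from -0.63 to -0.15 and an adjusted p of 0.0249 (limma, Benjamini-Hochberg). The transcript was 1.31-fold lower by this probe. Without replicate 3, 4, 5 or 6 the adjusted p in limma was 0.0640, 0.0551, 0.0751 and 0.0507. None of these was under 0.05.

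Probe 2 of *NIT2* gave the tightest values among the tested members. Its signals were 4574, 4501, 2073 and 1936 at T0 and 3105, 3164, 1318 and 1258 after starvation. The log2 ratios of -0.53, -0.47, -0.63 and -0.60 averaged -0.56 ± 0.07 (SD, n = 4), with a 95% interval from -0.71 to -0.40. The transcript was 1.47-fold lower, with an adjusted p of 0.00254 (limma, Benjamini-Hochberg). The adjusted p in limma stayed under 0.05 without any single one of the 4 replicates. All 8 ratios of probes 1 and 2 were below 0. Probe 3 had no reading above background on these arrays, and 6 of its 8 readings were at or below the 95th percentile of the negative controls.

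*NIT1*, the nitrate reductase gene, could not be measured in cc3491. With probe 1 the signals at T0 were 6.42, 5.72, 7.89 and 8.57, and those of the starved RNA 8.68, 5.44, 13.3 and 15.5. With probe 2 they were 6.20, 5.43, 7.52 and 8.41 at T0 and 7.83, 5.12, 12.7 and 13.4 after starvation. For both probes, 8 of 8 net intensities were at or below the 95th percentile of the negative controls, so a difference between T0 and starvation was not detectable at this signal, and the log2 ratios between 0.04 and 0.32 cannot be read as a change. Probe 3 was well above background in 1 reading, that of T0 on replicate 4 (34.3, against 21.3 in the starved channel), with log2 ratios of 0.17, -0.69, -0.78 and -0.55.

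The ammonium transporter gene *AMT1* had higher processed signals in the starved channel with probes 1 and 2, most clearly on slide 1. With probe 1 the signals at T0 were 26.4, 42.5, 31.2 and 29.1 and those of the starved RNA 124, 192, 39.3 and 78.1. Both starved readings of slide 1 were well above background and both of slide 2 were not, while at T0 the reading of replicate 4 was the one above background. The log2 ratios were 2.30, 2.23, 0.81 and 1.77, with a mean of 1.78 ± 0.69 (SD, n = 4) and all 4 above 0. The probe was above background on 2 of the 4 arrays, so the main test left it out. With the filter of 2 of 4 arrays, added after seeing the data, its adjusted p was 0.0113 (limma, Benjamini-Hochberg). That of probe 2 was 0.0930, and neither passed with Holm adjustment. Both probes met that filter through their starved readings. As 3 of the 4 T0 readings of probe 1 were not above background, the size of its ratio rests on the treatment of the background. The mean was 0.24 with normexp, 0.37 without background correction and 1.08 with all 6 arrays.

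Probe 2 of *AMT1* split by slide. At T0 its signals of 13.8, 8.12, 7.51 and 8.43 were not well above background on any array. In the starved RNA they were 59.5, 40.8, 12.7 and 14.0, of which the first pair was above background. On slide 1 the mean starved log2 signal lay 2.27-fold above a floor, the lowest T0 signal among probes well above background on each array. A T0 signal not above background can exceed this floor, so the value is no firm lower bound on the change. Over all 4 arrays no fold can be given. The log2 ratios were 2.23, 2.25, 0.32 and 0.29 and averaged 1.27 ± 1.12 (SD, n = 4). The mean was 0.17 with normexp. Probe 3 was not above background on these arrays and had log2 ratios between -0.32 and -0.10. *ECP76*, the sulfur starvation gene measured above, was likewise above background on slide 1 alone, and slide and labelled time cannot be told apart for *AMT1* either.

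*AMT4*, the other ammonium transporter gene, gave no reproducible ratio. Probe 1 had no reading above background and log2 ratios of 0.01, 0.27, 0.04 and 0.02. Probe 2 had 1 such reading, at T0 on replicate 4 (37.1, against 21.7 in the starved channel), and ratios of 0.33, -0.77 and 0.71 on replicates 3 to 5 and a higher one on replicate 6. Probe 3 had 1 such reading, in the starved channel of the same replicate (27.1, against 16.4 at T0), and ratios of 2.01, 0.69, 2.04 and -0.70. The single readings of probes 2 and 3 above background pointed in opposite directions on the same array.

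**Figure D2:**
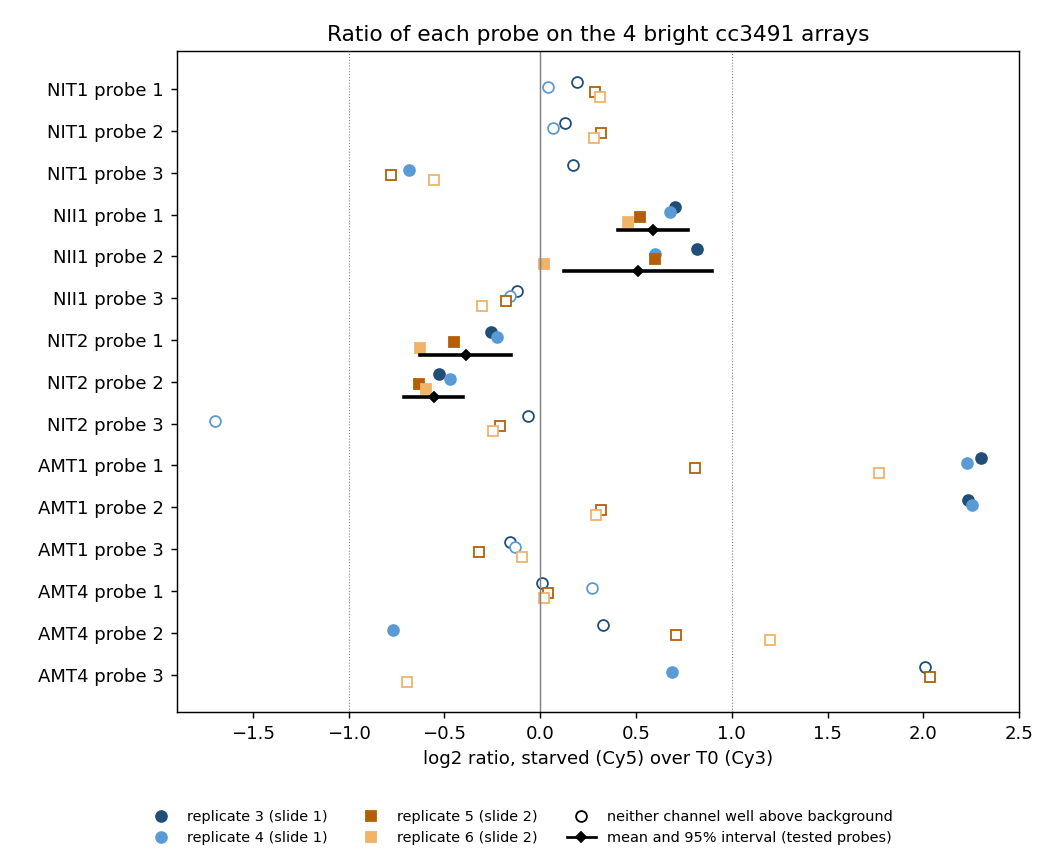
Log2 ratio of starved (Cy5) over T0 (Cy3) RNA after loess for each of the 15 probes on cc3491 replicates 3 to 6, with open symbols where neither channel was well above background and dotted lines at a change of 2-fold. Black diamonds with bars are the limma mean and its 95% interval for the 4 tested probes, 0.59 and 0.51 for *NII1* and -0.39 and -0.56 for *NIT2*. The *AMT1* points of slide 1 lie between 2.23 and 2.30 for probes 1 and 2, to the right of those of slide 2.

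The slides were then compared for the 4 tested probes. The difference of slide 2 minus slide 1 was -0.20 and -0.40 for probes 1 and 2 of *NII1* and -0.30 and -0.11 for those of *NIT2*. The mean ratios of *NII1* were nearer to 0 on slide 2 and those of *NIT2* farther from it. None of the 4 passed (limma, Benjamini-Hochberg, adjusted p between 0.216 and 0.433), and 0 of 18236 probes (0%) did so in the whole table with this adjustment or with Holm, while 4219 had an unadjusted p under 0.05. The 95% intervals ran from -0.42 to 0.02 and from -1.16 to 0.37 for probes 1 and 2 of *NII1*, and from -0.33 to 0.11 for *NIT2* probe 2. That of *NIT2* probe 1, from -0.59 to -0.00028, did not include 0 (unadjusted p of 0.0499 in limma, adjusted p of 0.216). For *AMT1*, which was not in this slide test, the means were 2.26 on slide 1 and 1.29 on slide 2 with probe 1, and 2.24 and 0.30 with probe 2.

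In cc125 nearly all readings could be used. On the first dye-test array 26 of 30 readings of the 15 probes were above background and on the second 29 of 30. *NIT1*, at background in cc3491, had signals of 112 (Cy3) and 106 (Cy5) with probe 1 and of 115 and 115 with probe 2 on the first array, all well above background. The net intensities of probe 1 were 57.5 and 78.5, against 95th percentiles of 11.2 and 9 for the negative controls of that array. *AMT4* had 6 of 6 readings above background on each of the 2 arrays. *NII1* went the other way, with signals of 52.9 and 56.6 for probe 1 and of 77.7 and 72.2 for probe 2 on the first array, below each of its readings on cc3491 replicates 3 to 6. *NIT2* probe 1, at 5590 and 6079, was in the range of slide 1 or slightly above it. More probes were above background on these arrays than on those of cc3491 and the strain was another, so strain, starvation and array brightness cannot be told apart in this contrast with cc3491.

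On the first dye-test array the members had similar signals in both channels. The 15 log2 ratios of Cy5 over Cy3, taken without loess, had a median of -0.08, and 0 of 15 reached a change of 2-fold in either direction. Over all probes above background on that array, 117 of 38991 (0.3%) were at least 2-fold higher in Cy5. *NII1* was at 0.10 and -0.10 with probes 1 and 2, and *NIT2* at 0.12 and -0.08. With this array subtracted from each cc3491 array the means were 0.49 and 0.61 for *NII1* and -0.51 and -0.48 for *NIT2*. With the mean of both dye-test arrays subtracted they were -0.81 and -0.87 for *NII1* and -0.84 and -0.77 for *NIT2*. As the second array went against its label, the latter values cannot be read as a correction for the dye. No cc3491 array had the dyes swapped, so the part of the dye in the starvation ratios was not tested in that strain.

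On the second dye-test array, labelled as the same RNA in both channels, the nitrate reduction genes were far apart between the channels. *NIT1* probe 1 had a signal of 176 in Cy3 and 954 in Cy5, a ratio of 5.42-fold, and probe 2 had 174 and 1216, a ratio of 6.99-fold. *NII1* probe 1 had 184 and 1195 (6.49-fold) and probe 2 had 180 and 1309 (7.27-fold). Both genes were thus higher in Cy5 with 2 of their 3 probes, at log2 ratios from 2.44 to 2.86. Between 0.925% and 1.57% of the 43050 probes measured on that array were at least as high, so that these probes lay near the upper end of a wide distribution in which 3874 probes (9%) were at least 2-fold higher in Cy5. The uncorrected net intensities of *NIT1* probe 1 were 45 in Cy3 and 319.5 in Cy5, with negative control medians of 6 and 27.

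The third probe of both genes did not show this. *NIT1* probe 3 had 77.8 in Cy3 and 55.2 in Cy5 on the second array, a log2 ratio of -0.50, and *NII1* probe 3 had 112 and 103, a ratio of -0.12. With normexp background correction and loess the ratios of probes 1 and 2 shrank to 0.52 and 0.57 for *NIT1* and to 0.71 and 0.74 for *NII1*, and 0 of 15 probes remained at 2-fold or more. The offset of 50 in normexp is near the uncorrected Cy3 net intensities of these probes, 45 and 49.5 for *NIT1* and 60 and 54 for *NII1*. Such an offset shrinks their ratios by construction, so the fall is no test of their size. The direction was kept for these 4 probes.

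The other members moved less on the second dye-test array. *NIT2* had log2 ratios of 0.77, 0.50 and -0.45 with probes 1 to 3, and 12.6% of all probes were at least as high as probe 1. *AMT1* had 0.91, 1.19 and 0.48, and *AMT4* 0.52, 0.53 and 1.15. In all, 6 of 15 probes from 4 of the 5 models were at least 2-fold higher in Cy5 (2.28-fold for *AMT1* probe 2 and 2.21-fold for *AMT4* probe 3), 0 of 15 were at least 2-fold lower, and the median was 0.77. Over all probes above background on that array, 9% were at least 2-fold higher and 20.9% changed at least 2-fold in either direction. Their median was 0.06. The array has no replicate, so no test was made.

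**Figure D3:**
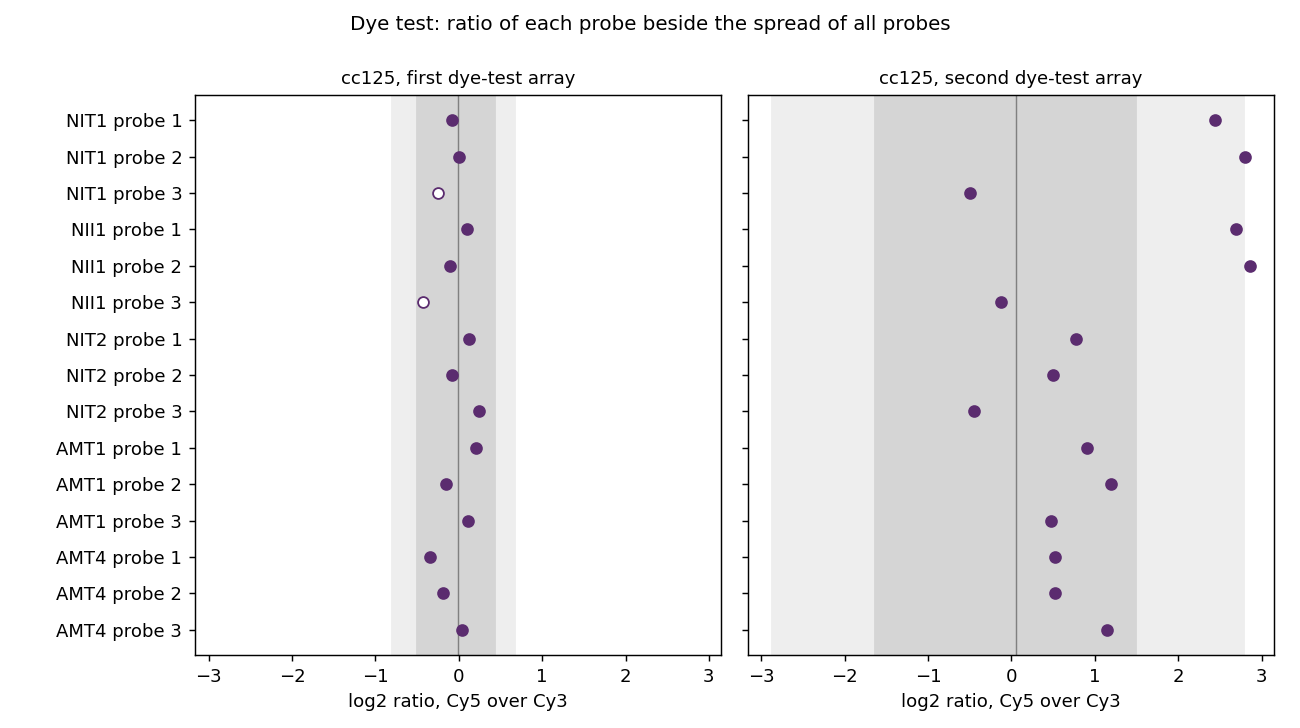
Log2 ratio of Cy5 over Cy3 without loess for each of the 15 probes on the first (left) and the second (right) cc125 dye-test array, with open symbols where neither channel was well above background. The dark band spans the 5th to the 95th percentile of all probes above background on that array, the light band the 1st to the 99th percentile, and the line is their median. On the right, probes 1 and 2 of *NIT1* and *NII1* lie between 2.44 and 2.86, whereas on the left all points lie inside the light band.

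*NIT1* and *NII1* lie close together on chromosome 9. In the v5.5 assembly, where 4 of the 5 members were matched and *NIT2* was not, the order is *NII1*, CHLREDRAFT_192088, CHLREDRAFT_192090, *NAR2* and *NIT1*, with *AMT1* on chromosome 3 and *AMT4* on chromosome 13. *NAR2* encodes a partner protein of a nitrate transporter, and the study names the locus of CHLREDRAFT_192090 as a nitrate transporter. The genes between *NII1* and *NIT1* were therefore read as well, and CHLREDRAFT_192088 and CHLREDRAFT_192090 were added to the list after seeing the data.

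CHLREDRAFT_192090 was the neighbour with the strongest ratio in cc3491. With probe 1 the T0 signals were 6.11, 15.1, 7.04 and 7.33 and the starved signals 193, 171, 29.4 and 51.7, of which the first pair was well above background. The T0 signals were not above background on any array, and on slide 1 the starved signal lay 7.52-fold above the floor described for *AMT1* probe 2. With probe 3 the signals were 19.8, 20.5, 7.96 and 15.2 at T0 and 222, 235, 91.9 and 78.7 after starvation. On slide 1 the starved signal lay 8.80-fold above that floor, and other background corrections were not tried for this gene. On slide 2 neither channel was above background, so no fold is given there. Probe 2 was not above background and had log2 ratios between -0.30 and 0.32. As with *AMT1*, the starved readings above background were those of slide 1.

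The other neighbours had small ratios in cc3491. *NAR2* had log2 ratios of 0.58, 0.48, 0.54 and 0.06 with probe 1, a mean of 0.42 ± 0.24 (SD, n = 4) and an adjusted p of 0.0352 (limma, Benjamini-Hochberg). Its probes 2 and 3 had means of 0.36 and 0.16 and did not pass (adjusted p of 0.0620 and 0.222 in limma). CHLREDRAFT_192088 was not above background on these arrays.

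On the second dye-test array several genes of this run had high ratios. *NAR2* had log2 ratios of 4.05, 2.59 and 2.74, and CHLREDRAFT_192090 of 4.63 with probe 1 and 4.44 with probe 3, its probe 2 lying between the values of *NAR2*. CHLREDRAFT_192088, which lies between *NII1* and CHLREDRAFT_192090, had 0.53, 0.53 and 0.56. On the first dye-test array the 9 probes of these 3 neighbours ranged from -0.56 to 0.57. On the second array 4 of the 5 genes in this run thus had probes at 2.44 or higher, a level that 1.57% of all probes measured there reached. The third probes of *NIT1* and *NII1* were below 0, and CHLREDRAFT_192090 was added after seeing the data. Normexp was not tried for the neighbours on this array. CHLREDRAFT_192088 lay near the *AMT4* values.

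**Figure D4:**
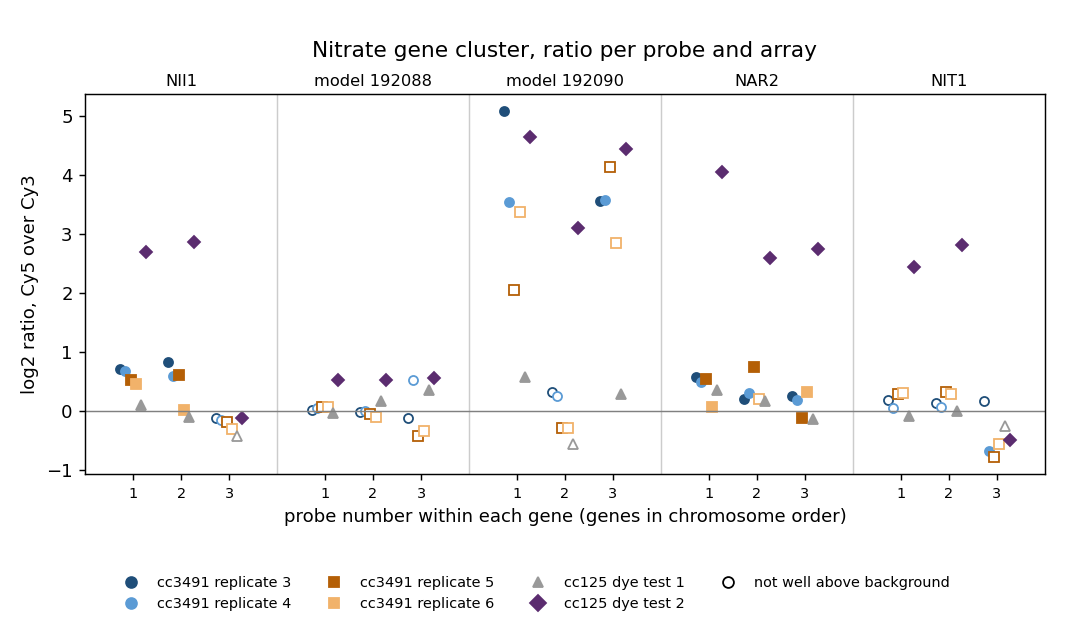
Log2 ratio of Cy5 over Cy3 for probes 1 to 3 of the genes from *NII1* to *NIT1* in their chromosome order, on cc3491 replicates 3 to 6 (circles and squares, starved over T0) and on the cc125 dye-test arrays (triangles and diamonds). Open symbols had neither channel well above background. The diamonds of the second dye-test array lie at 2.44 or higher for *NII1* and *NIT1* probes 1 and 2 and for all probes of *NAR2* and CHLREDRAFT_192090, and at 0.53 to 0.56 for CHLREDRAFT_192088.

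Further nitrogen genes of the study's tables were counted as a group (a second nitrate reductase model, glutamine synthetases, *NAR2*, the transporters *NAR1.2* and *NAR1.3* and a nitrate transport model). Of the 9 models listed, 8 were found on the array, and 21 of their 24 probes passed the filter. None was called with Holm adjustment and the 2-fold minimum. With Benjamini-Hochberg adjustment in limma 6 of 21 were higher and 7 lower in the starved RNA, against 21.9% and 23.7% of all probes tested, and 2 and 3 of these changed at least 2-fold, against 4.7% and 4.28%. The median of the 21 log2 ratios was -0.02, as over all probes tested. The 2 probes higher by at least 2-fold were those of *NAR1.2*, an anion transporter gene of the chloroplast envelope, with a mean of 1.27 ± 0.07 for probe 1 (SD, n = 4, adjusted p of 0.000368 in limma) and values from 0.94 to 1.56 for probe 3 (adjusted p of 0.00168 in limma). The 3 probes lower by at least 2-fold belonged to glutamine synthetase genes, which encode the enzyme that joins ammonium to glutamate. They were probes 1 and 2 of *GLN3*, with means of -1.53 ± 0.52 and -1.37 ± 0.41, and probe 3 of *GLN1*, with -1.16 ± 0.13 (SD, n = 4, adjusted p of 0.00569, 0.00418 and 0.000728 in limma). On the second dye-test array *NAR1.2* had the opposite sign, with log2 ratios of -5.10, -2.77 and -4.38, while *NIT1* and *NII1* were higher in Cy5.

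The probes whose pattern over replicates 3 to 6 and the dye-test arrays was most like that of *NII1* and *NIT2* were found by the root mean square difference of log2 ratio over these 6 arrays, among 14850 probes above background on each of them. For *NII1* probe 1 they were probe 1 of CHLREDRAFT_195611 (difference of 0.0301) and probe 1 of CHLREDRAFT_135825 (0.0485). The former had 0.70, 0.72, 0.48 and 0.50 on replicates 3 to 6 and 0.09 and 2.71 in the dye test. For *NIT2* probe 1 they were probe 3 of CHLREDRAFT_189975 (0.0727) and probe 2 of a model not matched in the annotation (0.0744). *NIT1*, *AMT1* and *AMT4* had no probe above background on all 6 arrays.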

How the data were processed

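The authors deposited the scanner output of 8 2-colour arrays, processed with Agilent Feature Extraction 10.7.3.1 per the labels. The intensity of each spot had been corrected for background and dye by the authors' software. The files also hold uncorrected median spot intensities. The deposited value table equals the log10 ratio of Cy5 over Cy3 in those files.

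Log2 ratios were taken from the processed intensities and each array was put through loess (limma 3.58.1 in R 4.3.3). Control spots and spots marked uneven or outlier were left out. limma compared the mean of replicates 3 to 6 with 0, following the study's lowess, Holm adjustment at 0.05 and minimum of 2-fold, over all 18236 probes above background on at least 3 of these 4 arrays. Replicates 1 and 2 entered only an alternative. For the dye test loess was omitted. The rule for named genes was all 15 member probes, called probes (here by Benjamini-Hochberg with the 2-fold minimum) or neighbours in the list of further nitrogen genes, and the 2 probes most like a member. Members, lists and arrays were chosen with earlier results of these data known. Where mean spot intensities are usual for normexp (offset 50), medians were used. The gene table of the v5.5 assembly matched 12302 of 14557 identifiers and served for gene order only, since it gave no symbols by which the list could be extended. Alternatives were the arrays, adjustment, background correction, normalization, filter, slide, dye effect, test, size of change and replicates. The steps were tested on simulated data. Figures were drawn with matplotlib 3.10.9.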

Additional observations from a re-analysis of the deposited data

How the results depend on the processing

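Number and signal of the arrays limit these results, since 11 of the 15 probes were too dim in cc3491 for the main test. The number of called probes in the whole table, 212, fell to 6 with all 6 arrays, 136 with normexp, 138 with median centring (which moved the median log2 ratio of all probes to -0.18), 58 with no filter on dim probes, 133 with the filter of 2 of 4 arrays (added after seeing the data), 107 with slide as a random block, 45 without moderation and 0 within slide 1 or slide 2 alone. It rose to 1639 with Benjamini-Hochberg adjustment, 544 with both channels above background on all 4 arrays and 361 with the mean of both dye-test arrays subtracted, and was 8 to 16 without one replicate. None of the 4 tested member probes was called under any of the 20 alternatives. *NIT2* kept its direction in 20 of 20 with both probes, *NII1* in 19 of 20. Many of these alternatives could not turn it, since a changed adjustment, filter or test leaves the mean as it was. Leaving out some of replicates 3 to 6 could not turn it either, as all 4 ratios of each tested probe had the same sign. Subtracting the mean of both dye-test arrays turned *NII1* to -0.81 and -0.87, as the second of these arrays had 2.70 and 2.86 for its probes. That array went against its label, so this alternative is no correction for the dye. With all 6 arrays, 2 of them at background, the means were 0.32, 0.24, -0.22 and -0.39 for *NII1* and *NIT2* probes 1 and 2, and the Benjamini-Hochberg adjusted p in limma was 0.0873 to 0.414. The difference between slides passed with Benjamini-Hochberg in limma for *NII1* probe 1 with normexp (-0.40, adjusted p of 0.0331) and without background correction (-0.39, 0.0137), and without background correction for *NII1* probe 2 (-0.51, 0.0232) and *NIT2* probe 1 (-0.37, 0.0166). The cause was not tested. On the second dye-test array, normexp, whose offset shrinks the ratios of dim probes, left 0 of 15 probes at 2-fold or more. No paired analysis was possible between the groups, because the replicate numbers that the labels share between them join different strains. Within cc3491 each ratio already pairs the T0 and starved RNA of 1 array, and the test of the mean ratio against 0 uses that pairing.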
